A study of Mus musculus with 24 samples.

Results

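The genes described here encode the proteins of the mitochondrial respiratory chain and the ATP synthase, the machinery that makes most of a neuron's ATP. They were chosen by name: every protein-coding gene whose mouse symbol begins with Nduf, Sdh followed by a, b, c or d, Uqcr, Cyc1, Cox4 to Cox8 or Atp5, together with the protein-coding genes of the mitochondrial genome, whose symbols begin with mt-. The rule found 112 gene identifiers of the 55487 in the count files, of which 21974 are protein-coding. Of these 112, 99 lie on nuclear chromosomes and 13 on the mitochondrial chromosome. By name the nuclear genes comprise 46 of complex I, 8 of complex II, 9 of complex III, 18 of complex IV and 18 of complex V, and they include 12 assembly factors (Ndufaf and Sdhaf genes) that are not part of the finished complexes. The mitochondrial genes comprise 7 of complex I, 1 of complex III, 3 of complex IV and 2 of complex V.

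Complexes I and II pass electrons from NADH and succinate to ubiquinone, complex III passes them on to cytochrome c, and complex IV, cytochrome c oxidase, reduces oxygen with them. Complexes I, III and IV pump protons across the inner membrane, and the ATP synthase, called complex V, makes ATP as protons flow back. Complex II is encoded by nuclear genes alone, whereas the other complexes are mosaics of subunits made from nuclear and from mitochondrial genes, which are transcribed by different polymerases in different compartments.

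The animals were wild-type mice that had undergone either olfactory bulbectomy, in which the bulbs that receive smell input are taken out, or a sham operation, and polyA RNA was sequenced from dissected brain regions. There were 4 bulbectomy and 5 sham libraries of hippocampus, 3 bulbectomy and 5 sham libraries of cortex, and 2 bulbectomy and 5 sham libraries of cerebellum. The labels give no strain, age or interval after surgery, and they do not say whether each library came from a separate animal, so p-values measure the spread between these libraries. In dissected tissue, fewer cells of a type and less RNA per cell cannot be told apart.

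The 24 libraries held between 3255661 and 138963332 reads assigned to genes, both extremes being sham hippocampus (replicates 1 and 4), while the others lay between 8145624 and 20230673. Levels are given in CPM, a gene's reads scaled to a common library size, here with TMM factors over all 24 libraries. Genes of the mitochondrial genome that encode proteins made up 2.25% to 12.5% of reads assigned to genes, and the chain's nuclear genes 1.23% to 2.64%. Some libraries stood apart before any comparison. Sham hippocampus 1 and 2 carried 3112 and 4100 summed CPM of 10 markers of striatal medium spiny neurons, against 299.9 to 457.7 in the other 3 sham libraries. Cerebellar sham 1 had the lowest nuclear and the highest mitochondrial level of its group.

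Of the 13 mitochondrial genes, 7 had reads in quantity: mt-Nd1, mt-Nd2, mt-Nd4, mt-Nd5 and mt-Nd6 of complex I, mt-Cytb of complex III and mt-Co1 of complex IV. The genes mt-Nd3, mt-Nd4l, mt-Co3, mt-Atp6 and mt-Atp8 were listed at 0 reads in all 24 libraries, and mt-Co2 had 15 reads in all. No mitochondrial subunit of the ATP synthase was therefore measured. Most of the genes without reads have near-identical nuclear copies, so-called nuclear mitochondrial segments, on chromosome 1. Of the 50-base words of their transcripts, 97.99% of those of mt-Nd3, 98.79% of those of mt-Nd4l, 100% of those of mt-Co2, 99.86% of those of mt-Co3 and 99.53% of those of mt-Atp6 recur in an annotated copy. For mt-Atp8 no annotated copy was found. Among the measured genes the share was 62.2% for mt-Nd4 and 51.1% for mt-Co1, 8.19% for mt-Nd2 and 7.61% for mt-Nd5, and 0% for mt-Nd1, mt-Nd6 and mt-Cytb. The total of reads left unassigned for matching several places was 0 in all 24 libraries. How such reads were treated is not given in the sources used here, and the part of these copies in the missing reads was not tested.

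The first 60 bases of mt-Nd3 (chrM:9459-9518, plus strand, GRCm38) and of its copy Gm28438 (chr1:24613060-24613119, minus strand), an unprocessed pseudogene, show how little separates a pair of such genes. Capitals mark the base that differs.
mt-Nd3: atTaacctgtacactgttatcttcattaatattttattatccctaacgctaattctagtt
Gm28438: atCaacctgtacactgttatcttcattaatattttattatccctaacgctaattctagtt
Over 345 aligned bases the copy differed from the mitochondrial gene at 1 position, T3C, counted from the first base of mt-Nd3. Gm28438 was counted with 5674 reads over the 24 libraries, up to 1980 in 1 library, while mt-Nd3 had none. The copies of mt-Co3 (Gm28437) and mt-Co2 (Gm28661) had 0 differences over 783 and 681 aligned bases and were counted with 38 and 153 reads. Results on the mitochondrial genome below rest on the 7 genes with reads, with mt-Nd1 and mt-Cytb, and mt-Nd6 on the opposite strand, as those that share no 50-base word with a nuclear gene. The strand option of the counting is not given, so reads from the other strand may be among those counted for mt-Nd6.

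Per kilobase of exon, the mitochondrial transcripts stood far above the nuclear ones. The length was that of all annotated exons of a gene merged, which for nuclear genes can exceed that of the transcripts present. In sham hippocampus mt-Nd1 had 23060 ± 4629 CPM per kilobase (SD, n = 5), mt-Co1 had 12100 ± 7859 and mt-Nd5, the lowest of the 7, had 2456 ± 1549. The spread between libraries exceeded the step between mt-Co1 and mt-Cytb (8213 ± 3310) and between mt-Cytb and mt-Nd2 (8071 ± 3239). Among nuclear genes of that group the leaders all belonged to complex IV: Cox4i1, the common isoform of the largest nuclear subunit, had 970.4 ± 350.9 CPM per kilobase, Cox6a1 had 718.5 ± 203.1 and Cox8a had 491.6 ± 128.5. Cox4i1 and Cox6a1 held the first 2 places in all 6 groups, in either order. The median over the nuclear genes of a complex in each library, assembly factors and genes without more than 100 reads in all left out, averaged over the libraries, was lowest for complex IV in all 6 groups (36.2 CPM per kilobase in sham hippocampus) and highest for complex III (116 in sham hippocampus). Cytochrome c oxidase thus held both the most abundant nuclear transcripts and several of the scarcest, the tissue-restricted isoforms described below.

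Summed over its genes, each genome gave a different picture across the libraries. The nuclear genes together reached 21177, 24140, 19135 and 20125 CPM in the hippocampus after bulbectomy, against 11846, 19723, 20767, 12652 and 18707 CPM after the sham operation. The 4 bulbectomy libraries were close to each other, and sham 2 and 3 lay within their range. The mitochondrial genes together reached 87360, 88630, 105460 and 88978 CPM in the hippocampus after bulbectomy, against 119960, 63708, 49467, 55917 and 60575 CPM after the sham operation. Here every bulbectomy library lay above 4 of the 5 sham libraries, and sham 1 lay above them all.

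**Figure D1:**
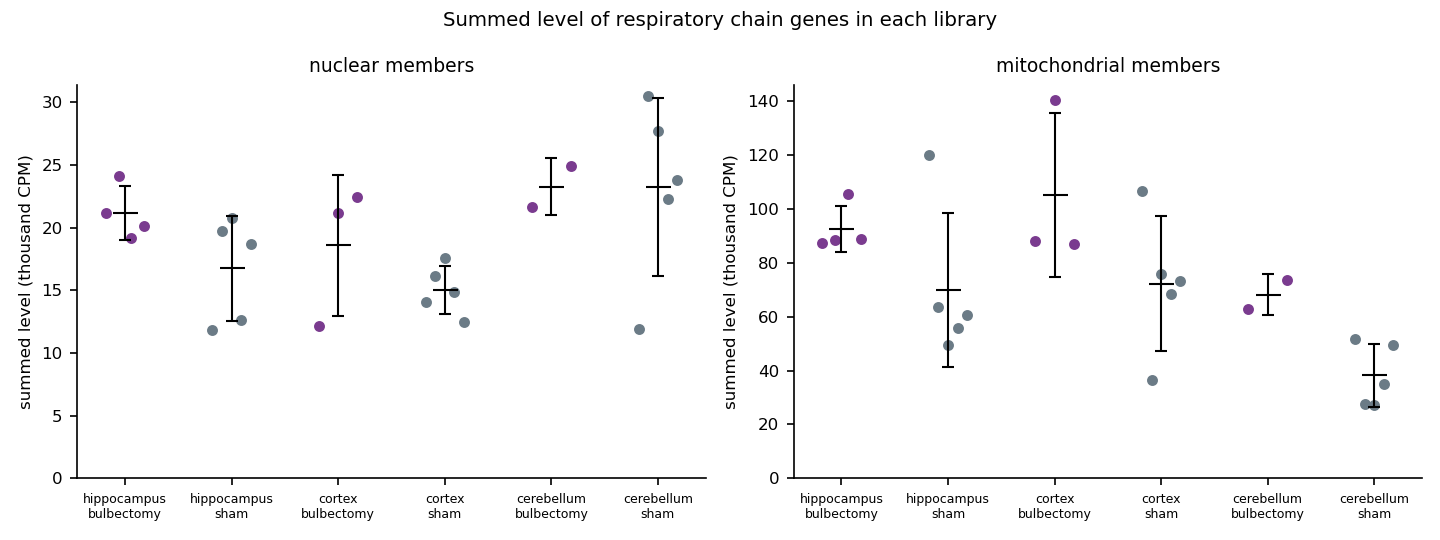
Summed level of the nuclear (left) and mitochondrial (right) respiratory chain genes in each library, on axes in kilo-CPM, with mean and SD per group (purple, bulbectomy; grey, sham). Sham hippocampus 1 has the highest mitochondrial level of its group (119960 CPM) and cerebellar sham 1 the lowest nuclear level of its group (11935 CPM).

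In the hippocampus most respiratory chain genes had positive fold changes after bulbectomy, nearly all of which did not pass the test. Of 103 genes tested, 88 had a positive and 15 a negative fold change, with a median of 0.35 on the log2 scale (bulbectomy over sham), whereas the median of all 13985 genes tested was 0.02. With edgeR's quasi-likelihood test and Benjamini-Hochberg adjustment over all genes, 1 of the 103 was called higher, Atp5g1, and none was called lower; 0.551% of all genes were called higher, so this count is near the background. At an unadjusted p under 0.05 there were 28 of the 103 genes, against 2794 of all 13985. In 16 of the 103 every bulbectomy library lay above every sham library, which was so for 4.06% of all genes tested. Among nuclear genes the median fold change was 0.60 for complex IV, where all 16 tested genes were positive, 0.38 for complex V (16 of 17 positive), 0.31 for complex I (39 of 46) and 0.31 for complex III (7 of 9). Complex II had a median of 0.07 with 4 of 8 positive. The 12 assembly factors, which fall within the counts of complexes I and II, had a median of -0.04 with 5 positive.

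**Figure D2:**
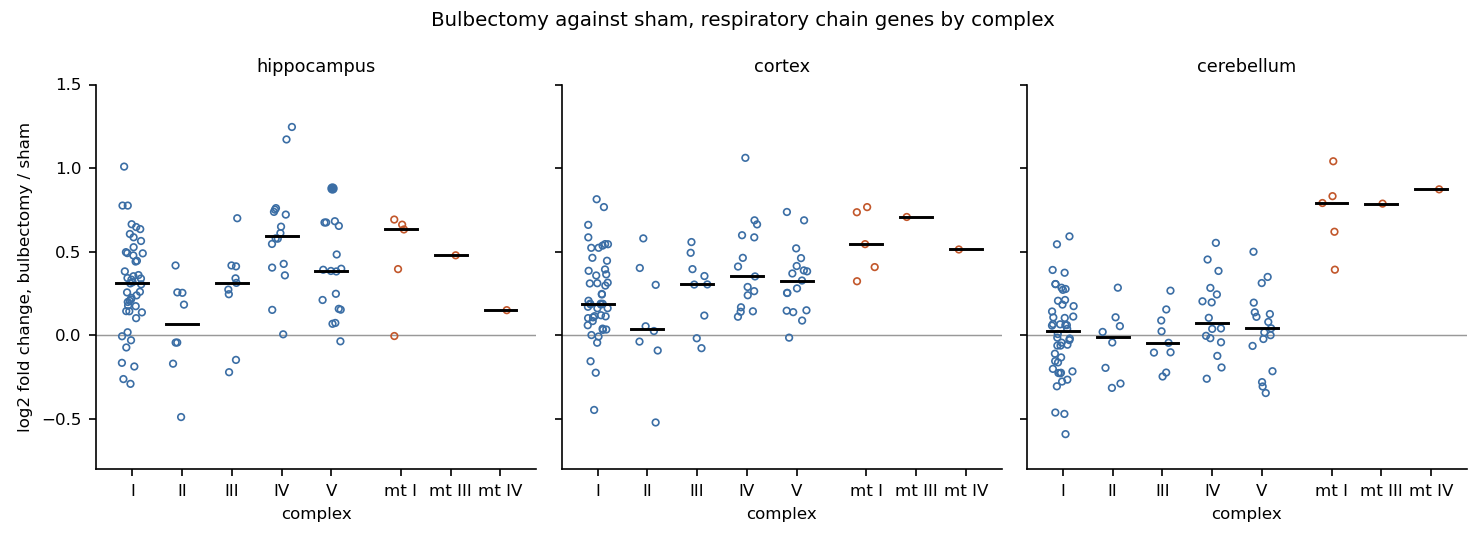
Log2 fold change (bulbectomy over sham) of each respiratory chain gene by complex in the 3 tissues: nuclear genes in blue, mitochondrial genes (mt) in orange, black lines the medians, filled points the genes called at an adjusted p under 0.05. The single filled point is Atp5g1 in the hippocampus. In the cerebellum the median of the mitochondrial genes (0.79) lies above that of the nuclear genes (0.03). The genes themselves overlap there, with mitochondrial values from 0.39 upward and nuclear values up to 0.59.

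Atp5g1 encodes the c subunit of the ATP synthase, the membrane rotor that turns as protons pass. It lies on chromosome 11 (chr11:96068852-96075670, minus strand, GRCm38). Its level was 155, 208, 149 and 175 CPM in the hippocampus after bulbectomy, against 66.6, 102, 122, 84.2 and 100.2 CPM after the sham operation. Every bulbectomy library lay above every sham library. The log2 fold change was 0.88 ± 0.18 (SE) with an adjusted p of 0.0332 (edgeR). The call was lost without any 1 of the 4 bulbectomy libraries (adjusted p 0.0698 to 0.121 by edgeR), without sham 4 (0.0712), without every library numbered 1 (0.0747) and with the replicate number as a block (0.0682), while the fold change stayed between 0.73 and 0.98 under all 20 alternatives. Of the 50-base words of its transcripts, 11.1% recur in other genes.

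The c subunit is encoded by 3 nuclear genes whose mature proteins are the same and whose import sequences differ. Atp5g3, the most abundant of them per kilobase of exon in sham hippocampus, had 559, 690, 486 and 395 CPM in the hippocampus after bulbectomy, against 112, 421, 465, 286 and 413 CPM after the sham operation, a log2 fold change of 0.67 ± 0.33 with an adjusted p of 0.286 (edgeR). Atp5g2 averaged 45.5 ± 2.35 CPM after bulbectomy (n = 4) and 38.9 ± 14.0 CPM after the sham operation (n = 5), a log2 fold change of 0.25 with an adjusted p of 0.59 (edgeR). Of the 50-base words of Atp5g2 transcripts 36.7% recur in other genes, so its level is less certain, and of those of Atp5g3 0%. For both genes the groups overlapped, and neither passed the test, and with a smooth dependence on length and GC taken out of each library the value of Atp5g2 was -0.02. The differences between the 3 genes were not tested.

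The promoters of the 3 genes, whose fold changes were not tested against each other, are shown because the genes give the same mature protein. Each is the 300 bases from 250 before to 50 after the gene's start, from RefSeq on GRCm38.p6, on the gene's own strand. Capitals mark matches on either strand to GCGCA, any base and GCGC in direct succession, a motif bound by the respiratory gene regulator NRF1, and to CCAAT, the box bound by nuclear factor Y. The windows lie at chr11:96075582-96075881 for Atp5g1, chr15:102670998-102671297 for Atp5g2 and chr2:73911277-73911576 for Atp5g3, all on the minus strand.
Atp5g1: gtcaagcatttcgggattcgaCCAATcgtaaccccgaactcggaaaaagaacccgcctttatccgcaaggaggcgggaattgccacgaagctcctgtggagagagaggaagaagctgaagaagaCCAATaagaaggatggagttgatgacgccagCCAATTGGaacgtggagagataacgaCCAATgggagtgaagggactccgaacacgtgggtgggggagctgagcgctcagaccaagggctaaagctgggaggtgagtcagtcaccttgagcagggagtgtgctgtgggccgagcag
Atp5g2: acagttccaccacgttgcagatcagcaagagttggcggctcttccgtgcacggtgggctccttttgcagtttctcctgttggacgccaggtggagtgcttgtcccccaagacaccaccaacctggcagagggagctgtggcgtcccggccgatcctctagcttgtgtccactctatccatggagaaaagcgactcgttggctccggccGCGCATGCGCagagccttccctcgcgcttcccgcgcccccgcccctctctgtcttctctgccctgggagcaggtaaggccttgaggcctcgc
Atp5g3: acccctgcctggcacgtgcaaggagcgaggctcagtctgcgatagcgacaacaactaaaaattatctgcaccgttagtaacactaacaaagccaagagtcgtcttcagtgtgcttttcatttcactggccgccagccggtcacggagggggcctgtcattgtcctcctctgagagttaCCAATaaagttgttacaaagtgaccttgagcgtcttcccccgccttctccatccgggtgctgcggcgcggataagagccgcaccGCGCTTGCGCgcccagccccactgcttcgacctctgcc
The window of Atp5g1 held 5 CCAAT matches, of which a pair overlap head to head, and 0 NRF1 matches. That of Atp5g2 held 1 NRF1 match and 0 CCAAT matches, and that of Atp5g3 held 1 of each. Of 98 nuclear symbols of the chain, 78 had a promoter in the table. The NRF1 motif was found in 21 of these 78 (26.9%), against 5.19% of all 27025 symbols with a promoter, and CCAAT was found in 34 (43.6%), against 41.1% of all. Windows with 4 or more CCAAT matches made up 1.23% of all and belonged to 4 of the 78. A match is a run of letters and not a shown binding site.

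The hippocampal genes of smallest p after Atp5g1 were led by isoforms of cytochrome c oxidase. Cox6a2, the heart and muscle isoform of subunit VIa, had 11.0, 6.97, 13.3 and 8.95 CPM in the hippocampus after bulbectomy, against 2.65, 5.89, 5.97, 3.09 and 3.99 CPM after the sham operation (log2 fold change 1.25 ± 0.30, adjusted p 0.0547 by edgeR). Cox7a1, the heart and muscle isoform of subunit VIIa, had 4.56, 5.02, 3.42 and 3.39 CPM after bulbectomy, against 1.77, 1.39, 1.79, 1.86 and 2.41 CPM after the sham operation (log2 fold change 1.17 ± 0.30, adjusted p 0.0641 by edgeR). The groups of both genes were fully apart, at levels of a few CPM, and neither passed the threshold. Cox6a2 lies on chromosome 7 (chr7:128205435-128206387, minus strand), and 10.29% of its exon bases are overlapped by Itgad on the other strand, so that a few of its reads may be uncertain. Their ubiquitous partners are far more abundant. Cox6a1 averaged 840.1 ± 115 CPM after bulbectomy (n = 4) and 504.4 ± 143 CPM after the sham operation (n = 5), a log2 fold change of 0.76 ± 0.21 with an adjusted p of 0.0822 (edgeR). Cox8a, the ubiquitous subunit VIII, had 481, 555, 437 and 540.2 CPM after bulbectomy, against 211, 365, 395, 235 and 315 CPM after the sham operation (log2 fold change 0.75 ± 0.20, adjusted p 0.0646 by edgeR). For Cox6a1 and Cox8a too, every bulbectomy library lay above every sham library.

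In complex I the smallest p-values belonged to Ndufv3, a subunit of the NADH-binding arm, and Ndufab1, the mitochondrial acyl carrier protein. Ndufv3 had a log2 fold change of 0.64 ± 0.17 (adjusted p 0.0641) and Ndufab1 one of 0.65 ± 0.18 (adjusted p 0.0741), both by edgeR, and the groups of both genes were apart. The 4 subunits of complex II, the succinate dehydrogenase that also serves the citric acid cycle, ranged from -0.17 for Sdhd to 0.42 for Sdhb, with adjusted p between 0.294 and 0.579 (edgeR). The catalytic subunit Sdha averaged 471.2 ± 36.3 CPM after bulbectomy and 423.3 ± 38.9 CPM after the sham operation (SD, n = 4 and 5). DESeq2 on the same counts called 11 genes of the chain higher and none lower, where it called 2.67% of all 13985 genes higher: Atp5g1, Cox6a1, Cox6a2, Cox7a1, Cox8a, Ndufab1, Ndufv3, Ndufa10, Uqcrb, Atp5d and mt-Nd1.

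**Figure D3:**
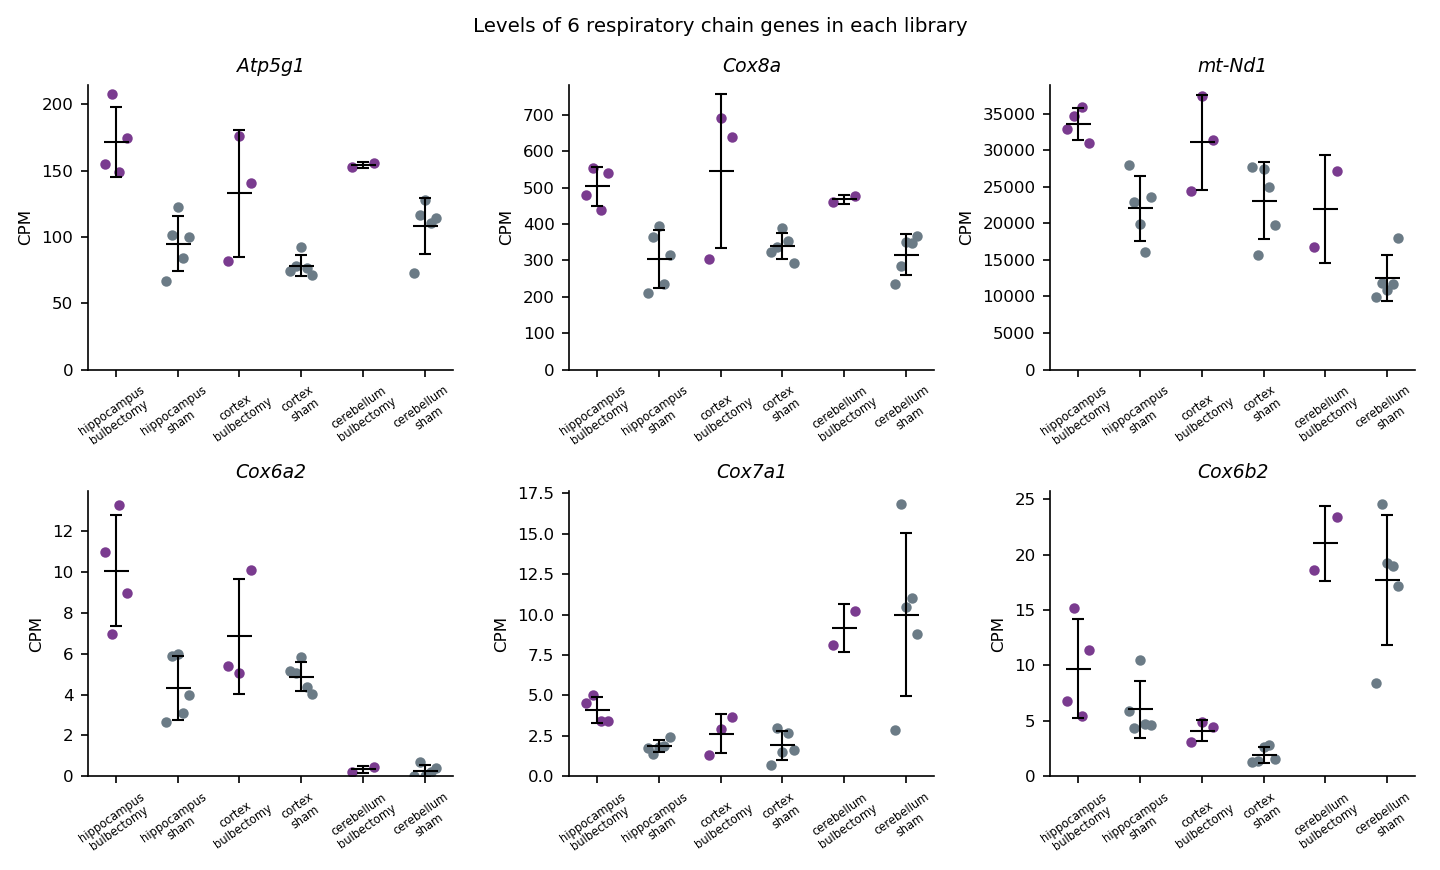
Level of 6 respiratory chain genes in each library, in CPM, with mean and SD per group (purple, bulbectomy; grey, sham). Atp5g1, Cox8a, mt-Nd1, Cox6a2 and Cox7a1 have separate hippocampal groups, Cox6a2 is near 0 in the cerebellum and Cox6b2 is highest there.

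The 7 measured mitochondrial genes had a median log2 fold change of 0.48 in the hippocampus, with 6 positive and none called. For mt-Nd1, the core subunit of the membrane arm of complex I (chrM:2751-3707, plus strand), the levels were 32846, 34643, 35836 and 30930 CPM after bulbectomy, against 27911, 22875, 19906, 16015 and 23618 CPM after the sham operation. Its groups did not overlap, and the log2 fold change of 0.63 ± 0.20 had an adjusted p of 0.109 (edgeR). For mt-Nd6, also of complex I, the levels were 2545, 2776, 3535 and 2786 CPM after bulbectomy, against 3431, 1903, 1233, 1076 and 1550 CPM after the sham operation, a log2 fold change of 0.69 with an adjusted p of 0.217 (edgeR). Only sham 1 of the sham libraries reached the bulbectomy range of mt-Nd6. The same library stood above every other hippocampal library for mt-Nd2, mt-Nd5, mt-Cytb and mt-Co1, and mt-Nd5 (-0.00) and mt-Co1 (0.15) had the smallest fold changes, both of which changed sign under some alternatives. Without sham 1 the median of the 7 genes was 0.69 with all 7 positive, and mt-Nd4 and mt-Nd6 passed the test, where 0.333% of all genes were called higher. Without sham 3 the median was 0.28 and without sham 5 it was 0.32, each with 5 of 7 positive and none called. Without sham 1 and 2, whose striatal markers were high, the median was 0.80, and mt-Nd1, mt-Nd2, mt-Nd4, mt-Nd6 and mt-Cytb were called at log2 fold changes of 0.74 to 1.22, where 0.842% of all genes were called higher. The 5 mitochondrial genes stood among 9 of the chain called without sham 1 and 2, the other 4 being Atp5g1, Cox6a2, Ndufab1 and Ndufa3. Without sham 2 alone 7 genes of the chain were called higher, none of them mitochondrial, and 138 of all 13775 genes tested.

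Transcript length and cell type markers in the hippocampus were set beside the results on the nuclear genes. Respiratory chain transcripts are short: of the 96 nuclear genes tested in the hippocampus, 70 fell in the shortest of 5 equal classes of protein-coding genes by exon sequence, up to 2584 bases. All protein-coding genes of that class had a median log2 fold change of 0.25 in the hippocampus and those of the longest class one of -0.21, while the 70 chain genes had 0.35. With a smooth dependence on length and base composition (GC) taken out of each library, the median of the nuclear chain genes was 0.21, with 75 of 96 positive, and 2 genes were called higher, where 1.52% of all genes were. Library by library, the median deviation of 97 nuclear chain genes from their tissue's sham mean followed that of 2859 other short genes, with a Pearson r of 0.976 over the 24 libraries; the points share library, scaling and depth, and no test was made. For the mitochondrial against the nuclear genes the same description gave an r of -0.167. The 10 striatal markers all had negative fold changes after bulbectomy in the hippocampus (median -2.54, none called, 399 to 566 summed CPM after bulbectomy and 299.9 to 4100 after the sham operation). Of 12 markers of thalamus and habenula 11 were positive and 5 were called higher (228 to 436 summed CPM after bulbectomy and 62.0 to 291 after the sham operation). Of 7 markers of cerebellar granule cells tested 6 were positive and 1 was called higher, with sums that did not overlap (84.1 to 153.8 CPM after bulbectomy and 38.8 to 71.4 after the sham operation). Endothelial markers summed to 259.9 to 344.7 CPM after bulbectomy and 173.7 to 274.9 after the sham operation, and astrocyte markers to 2750 to 5242 CPM (median 3842) after bulbectomy and 2144 to 3792 (median 2552) after the sham operation, both with overlap. Oligodendrocyte markers, 7 of 8 positive and none called, overlapped as well (4618 to 5956 CPM after bulbectomy and 3535 to 6412 after the sham operation). So did microglial markers (1077 to 2650 CPM after bulbectomy and 971 to 2039 after the sham operation). Purkinje cell markers, which overlapped too, lay lower after bulbectomy (193 to 286 CPM, against 249 to 721 after the sham operation). The part of transcript length and of these cell types in the results on the chain was not tested.

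**Figure D4:**
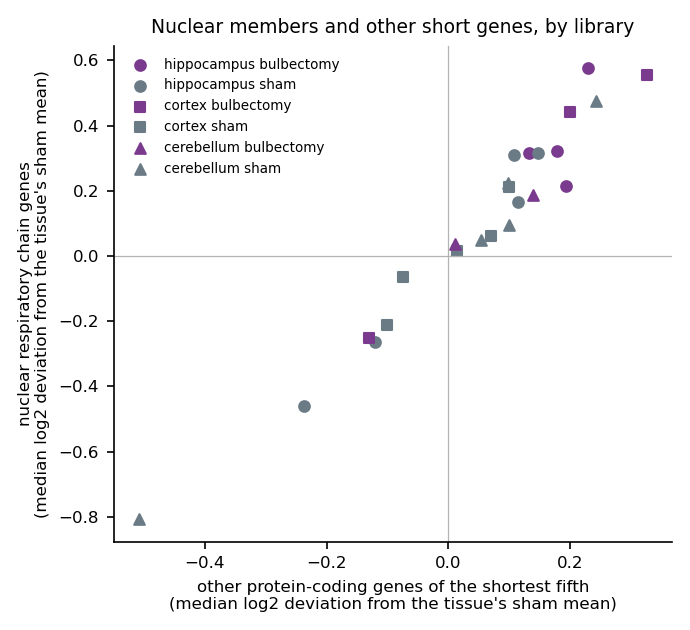
Median log2 deviation from the tissue's sham mean in each of the 24 libraries, for other protein-coding genes of the shortest length class (horizontal) and for nuclear respiratory chain genes (vertical). Cerebellar sham 1 lies lowest on both axes, at -0.51 for other short genes and -0.81 for the nuclear chain genes, and sham hippocampus 1 next, at -0.24 and -0.46.

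In the cortex the direction was similar and no gene of the chain was called. Of 102 genes tested, 91 were positive, with medians of 0.26 over 95 nuclear and 0.55 over 7 mitochondrial genes and 0.01 over all 14847 genes. No gene of the chain was called by edgeR, where 0.0202% of all genes were called, nor by DESeq2, and limma voom called 5, where it called 1.08% of all genes higher and 0.62% lower. At an unadjusted p under 0.05 there were 19 of the 102, against 877 of all genes. By complex the nuclear medians were 0.35 for complex IV (15 of 15 positive), 0.33 for V, 0.30 for III, 0.19 for I and 0.04 for II. The smallest p again belonged to Atp5g1, with 81.6, 176 and 141 CPM in the cortex after bulbectomy, against 74.7, 78.1, 92.2, 76.4 and 71.4 CPM after the sham operation (log2 fold change 0.74 ± 0.21, adjusted p 0.611 by edgeR). Bulbectomy 1 lay within the sham range and the other 2 lay above it. Cox6b2, known in mammals as the testis isoform of subunit VIb, had 3.09, 4.86 and 4.39 CPM after bulbectomy, against 1.23, 1.36, 2.64, 2.81 and 1.58 CPM after the sham operation. Its groups were apart at these low levels, with a log2 fold change of 1.06 ± 0.35 and an adjusted p of 0.687 (edgeR). Every bulbectomy library lay above every sham library in 1 of the 102 chain genes and in 2.19% of all genes.

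Cortical bulbectomy 1 decided much of this. Its nuclear genes summed to 12155 CPM, against 21147 and 22460 CPM in the other 2 bulbectomy libraries, and the sham libraries ranged from 12495 to 17556. Without it the nuclear median was 0.49, and 19 genes of the chain were called higher and 1 lower, where 2.01% of all 15103 genes were called higher and 1.78% lower. Without every library numbered 1, sham included, the nuclear median was 0.45 and 7 genes were called, where 0.558% of all genes were called higher and 0.664% lower. The move went the other way without bulbectomy 4, which left a nuclear median of 0.11, and without bulbectomy 2, which left 0.17, with none called in either case. The 7 mitochondrial genes ranged from 0.32 for mt-Nd5 to 0.77 for mt-Nd6, all positive, with adjusted p of 0.779 to 0.899 (edgeR). Their sums were 88016, 140570 and 87109 CPM in the cortex after bulbectomy, against 106850, 36574, 76072, 68567 and 73408 CPM after the sham operation, so that every bulbectomy library lay above 4 of the 5 sham libraries, while sham 1 lay above 2 of the 3. The mitochondrial median was 0.26 without bulbectomy 2 and 0.35 without sham 2, and it reached 0.97 by voom, with all 7 genes positive in each.

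Cell type markers and transcript length moved in the cortex too. The bulbectomy and sham sums did not overlap for 4 lists, in none of which a gene was called. Striatal markers summed to 609 to 872 CPM in the cortex after bulbectomy and 471 to 593 after the sham operation, and those of choroid plexus to 19.3 to 34.8 CPM after bulbectomy and 6.73 to 14.8 after the sham operation. Markers of thalamus and habenula summed to 75.6 to 79.2 CPM after bulbectomy and 62.7 to 74.2 after the sham operation, and those of cortical layers to 473 to 491 CPM after bulbectomy and 498 to 584 after the sham operation. Of 8 oligodendrocyte markers all were positive in the cortex (median log2 fold change 0.37). The shortest class of protein-coding genes had a median log2 fold change of 0.15 in the cortex and the longest one of -0.11, while the 69 chain genes of the shortest class had 0.30. Their part in the cortical result was not tested.

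In the cerebellum the genomes parted. The 96 nuclear genes tested had a median log2 fold change of 0.03, with 53 positive and 43 negative, while the 7 mitochondrial genes were all positive with a median of 0.79; the median of all 15295 genes was -0.06. With 2 bulbectomy libraries no gene of the chain was called by edgeR, where 0.0131% of all genes were called, nor by DESeq2, and 6 of 103 reached an unadjusted p under 0.05, against 454 of all genes. The mitochondrial genes summed to 62728 and 73586 CPM in the cerebellum after bulbectomy, against 51823, 27492, 27266, 35196 and 49459 CPM after the sham operation. Both bulbectomy libraries lay above all 5 sham libraries. The nuclear genes summed to 21653 and 24876 CPM after bulbectomy, against 11935, 30476, 27705, 22274 and 23783 CPM after the sham operation, with the bulbectomy libraries in the middle of the sham range.

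The smallest cerebellar p belonged to mt-Nd6, with 1966 and 1854 CPM in the cerebellum after bulbectomy, against 1283, 1202, 931, 841 and 1002 CPM after the sham operation. The log2 fold change was 0.83 ± 0.24, the adjusted p 0.9998 (edgeR). As said above, reads from the other strand may be among those counted for mt-Nd6. The levels of mt-Nd4 were 5177 and 5387 CPM after bulbectomy, against 3911, 1461, 1773, 1778 and 3517 CPM after the sham operation, a log2 fold change of 1.04 ± 0.44 at the same adjusted p. For mt-Nd4 and mt-Nd6 the groups did not overlap. Full separation with bulbectomy above sham held for 11 of the 103 chain genes, against 6.02% of all 15295 genes tested. With bulbectomy below sham it held for 1 of the 103, against 4.9% of all genes. With so few bulbectomy libraries, such separation is weak evidence for any single gene or sum. Ndufs1, the largest subunit of complex I, went the other way, with 97.5 and 97.0 CPM after bulbectomy, against 120, 142, 149, 124 and 131 CPM after the sham operation (log2 fold change -0.47 ± 0.16, adjusted p 0.9998 by edgeR). It was the only nuclear chain gene in the longest class of protein-coding genes, whose median of -0.32 was negative too. Cox8a (0.55 ± 0.19) and Atp5g1 (0.50 ± 0.19) were the nuclear genes of smallest p with a positive fold change. Without cerebellar sham 1, whose nuclear level was low, the nuclear median was -0.10 with 33 of 96 positive, the mitochondrial median was 0.95, and mt-Nd6 was called (adjusted p 0.0496 by edgeR), where 0.211% of all genes were called higher. Sums of markers were apart in the cerebellum for Purkinje cells (2446 to 2781 CPM after bulbectomy and 2828 to 5496 after the sham operation), and the longest class of genes had a median log2 fold change of -0.32, against 0.03 for the shortest. Their part in the cerebellar values was not tested.

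The difference of the bulbectomy effect between tissues was tested directly in a fit of all 24 libraries. In each of the 3 contrasts no gene of the chain was called, and 0.0 percent of 16564 genes were called. The smallest p values between hippocampus and cerebellum belonged to Uqcrb, a subunit of complex III (log2 difference 0.88 ± 0.34), the complex I assembly factor Ndufaf5 (-0.70 ± 0.30) and Cox7a1 (1.27 ± 0.64). Between hippocampus and cortex they belonged to Ndufaf5 (-0.51 ± 0.28), Uqcrb (0.54 ± 0.31) and the complex II assembly factor Sdhaf4 (-0.49 ± 0.32). Between cortex and cerebellum they belonged to Sdhaf4 (0.70 ± 0.36), Atp5e, the epsilon subunit of the ATP synthase (0.997 ± 0.604), and Cox6b2 (0.83 ± 0.57). All of these adjusted p-values were 1 after rounding (edgeR). An effect that differed between the tissues was thus not shown for any single gene.

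The sham libraries compare the tissues without surgery on the bulbs. The sham cerebellum was set against the sham hippocampus and the sham cortex, comparisons that share the cerebellar libraries, and the largest differences lay in the isoforms of cytochrome c oxidase. Cox6a2 had 0, 0.695, 0, 0.217 and 0.405 CPM in sham cerebellum, against 2.65, 5.89, 5.97, 3.09 and 3.99 CPM in sham hippocampus and 5.14, 5.06, 5.85, 4.35 and 4.02 CPM in sham cortex. It was lower in sham cerebellum by a log2 fold change of -4.11 ± 0.61 against hippocampus (adjusted p 6.5e-05) and -4.31 ± 0.60 against cortex (adjusted p 3.11e-05), both by edgeR, without overlap. Of all genes tested, 8.85% lay fully below hippocampus and 11.9% fully below cortex. Cox7a1, the other heart and muscle isoform, went the opposite way. It had 2.83, 16.8, 10.5, 11.0 and 8.80 CPM in sham cerebellum, against 1.77, 1.39, 1.79, 1.86 and 2.41 CPM in sham hippocampus, and was higher by 2.36 ± 0.42 (adjusted p 0.000414 by edgeR). Against sham cortex it was higher by 2.29 ± 0.41 (adjusted p 0.000365 by edgeR).

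Cox6b2 also marked the cerebellum, with 8.40, 24.6, 19.3, 19.0 and 17.2 CPM in sham cerebellum, against 5.90, 4.39, 10.5, 4.75 and 4.62 CPM in sham hippocampus and 1.23, 1.36, 2.64, 2.81 and 1.58 CPM in sham cortex. The 3 tissues formed an order in which each step passed edgeR's test: 1.499 ± 0.322 for cerebellum over hippocampus (adjusted p 0.00198), 3.10 ± 0.34 for cerebellum over cortex (2.41e-06) and 1.60 ± 0.34 for hippocampus over cortex (0.0144). Cerebellum and hippocampus overlapped in 1 library each, cerebellar sham 1 and hippocampal sham 3. Cox6b2 was the only gene of the chain called between sham hippocampus and sham cortex, where 2.09% of all genes were called higher, and it was called there under all 26 alternatives. Cox4i2, the isoform of subunit IV linked to oxygen sensing, was higher in sham cerebellum by 1.44 ± 0.33 against hippocampus (adjusted p 0.00354) and by 1.19 ± 0.33 against cortex (adjusted p 0.00932), both by edgeR. The abundant Cox6a1 and Cox8a passed in neither comparison (log2 fold changes between -0.19 and 0.36). Atp5l, the g subunit of the ATP synthase, was called higher against hippocampus (1.55 ± 0.38, adjusted p 0.00555 by edgeR), but had only 692 reads in all and shares 8.73% of its words with other genes, so this value is uncertain.

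Apart from the isoforms, most nuclear genes had positive fold changes in sham cerebellum. Against sham hippocampus 79 of 96 were positive with a median of 0.31, against 0.05 for all 15142 genes, and 10 were called higher and 1 lower; 12.9% of all genes were called higher, so the share called was not above the background. Against sham cortex 87 of 96 were positive with a median of 0.41, against 0.06 for all genes, and 22 were called higher and 1 lower, where 17.9% of all genes were called higher and 16.8% lower. Called in both comparisons were Ndufs1 (0.59 ± 0.11 against hippocampus and 0.49 ± 0.11 against cortex), Sdha (0.57 ± 0.13 and 0.52 ± 0.13 in the same order), Ndufc2 (0.77 and 0.73), Uqcrc2 (0.43 and 0.41) and Atp5a1, the alpha subunit of the ATP synthase (0.57 and 0.61). Sdha had 490, 707, 813, 619 and 661 CPM in sham cerebellum, against 367, 411, 471, 422 and 445 CPM in sham hippocampus, with no overlap. Every cerebellar library lay above every hippocampal one in 6 of the 103 chain genes and in 9.25% of all genes tested. Further genes called against cortex included Ndufv3 (0.80), Sdhd (0.53), Atp5b (0.68) and Atp5f1 (0.53). All complexes had positive medians in both comparisons, from 0.26 (complex IV) to 0.43 (complex V) against hippocampus and from 0.34 (complex IV) to 0.53 (complex V) against cortex. Scaling by the assigned total, which shifted the median of all genes by 0.12 in either comparison, gave 27 called higher and 2 lower against hippocampus and 40 higher and 2 lower against cortex, where 15.7% and 21.6% of all genes were called higher. The same-numbered sham libraries of hippocampus and cerebellum varied together, and with the number as a block 20 genes of the chain were called higher and 8 lower against hippocampus, where 15.8% of all genes were called higher and 19.2% lower.

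The mitochondrial genes ran against the nuclear ones in this comparison of tissues. All 7 had negative fold changes in sham cerebellum, with a median log2 fold change of -0.94 against sham hippocampus and -0.97 against sham cortex. Against hippocampus 3 of 7 were called lower, where 15.5% of all genes were called lower: mt-Nd1 (-0.89 ± 0.22, adjusted p 0.00554), mt-Nd2 (-0.97 ± 0.31, 0.0256) and mt-Nd4 (-1.10 ± 0.35, 0.0262), all by edgeR. With the block, all 7 were called lower, where 19.2% of all genes were. With the dependence on length and GC taken out, all 7 stayed negative against hippocampus (median -0.83) and 2 were called, where 16.8% of all genes were called lower. Against cortex the median was then -0.44, mt-Nd6 turned positive (0.18) and none was called, where 18.4% of all genes were called lower. In the main fit 5 of 7 were called lower against cortex, where 16.8% of all genes were. These were mt-Nd1 (-0.97 ± 0.22, adjusted p 0.00242), mt-Nd2 (-0.94, 0.0242), mt-Nd4 (-1.14, 0.0182), mt-Nd5 (-1.30, 0.0268) and mt-Nd6 (-0.96, 0.0316), all by edgeR, while mt-Cytb (-0.82, 0.0781) and mt-Co1 (-1.04, 0.111) were not called. The level of mt-Nd1 was 9979, 11888, 10940, 11674 and 17955 CPM in sham cerebellum, against 27911, 22875, 19906, 16015 and 23618 CPM in sham hippocampus and 27691, 15658, 27446, 24945 and 19808 CPM in sham cortex. Cerebellar sham 5 alone reached the range of the other tissues. The ratio of mitochondrial to nuclear chain reads was 0.902 to 4.34 with a median of 1.58 in sham cerebellum, against 2.38 to 10.1 (median 3.24) in sham hippocampus and 2.26 to 7.59 (median 4.61) in sham cortex.

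**Figure D5:**
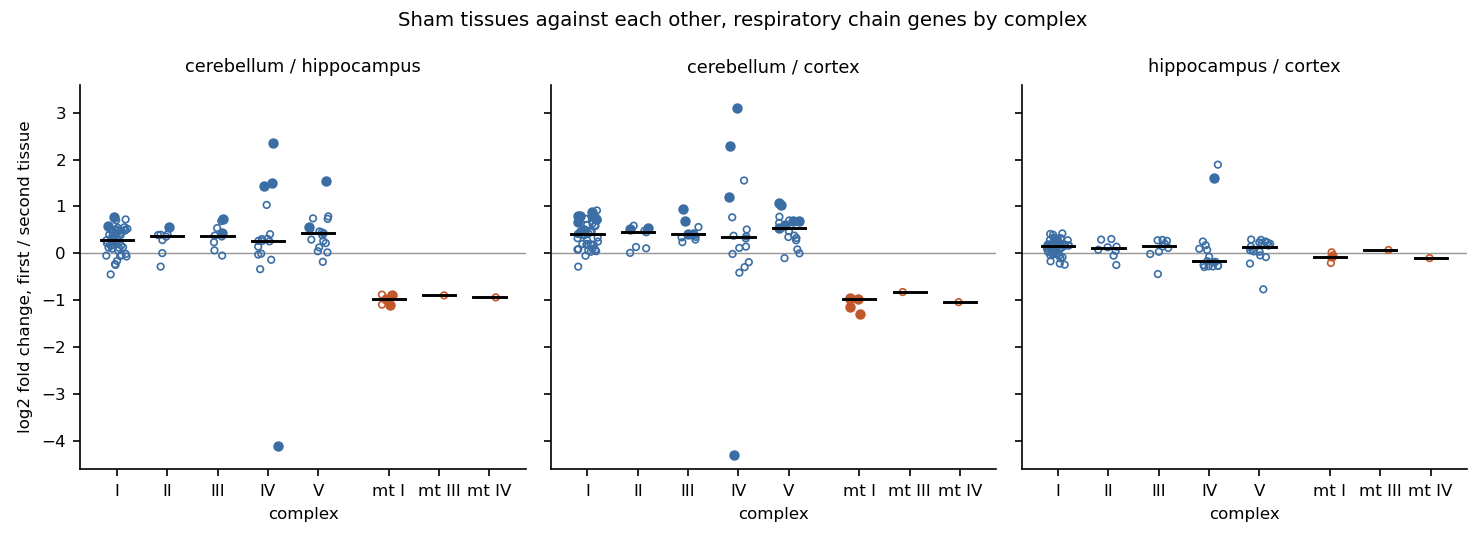
Log2 fold change of each respiratory chain gene between sham tissues (first tissue over second), by complex: nuclear genes in blue, mitochondrial genes (mt) in orange, black lines the medians, filled points the called genes. The mitochondrial genes of sham cerebellum lie between -1.10 and -0.88 against hippocampus and between -1.30 and -0.82 against cortex, opposite to the nuclear medians.

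The size of these tissue differences depended on single libraries. Without cerebellar sham 1, whose nuclear level was the lowest of all sham libraries but one, 44 genes of the chain were called higher and 7 lower against hippocampus, 6 of them mitochondrial, where 17.3% of all genes were called higher and 21.8% lower. Against cortex 59 were then called higher and 9 lower, 7 of them mitochondrial, where 24.6% of all genes were called higher and 25.6% lower. Without sham hippocampus 1 and 2 the mitochondrial median against hippocampus was -0.55 and all 7 genes stayed negative. Without cortical sham 1, 16 genes were called higher and 2 lower against cortex, where 15.1% of all genes were called higher and 14.9% lower. Marker genes separated the tissues as labelled: 8 of 8 markers of cerebellar granule cells were called higher in sham cerebellum against either tissue (2888 to 4744 summed CPM in sham cerebellum, 38.8 to 71.4 in sham hippocampus and 44.1 to 84.5 in sham cortex). Of 8 microglial markers none was higher in sham cerebellum, with 7 called lower against hippocampus and 8 against cortex (251 to 766 summed CPM in sham cerebellum, 971 to 2039 in sham hippocampus and 1060 to 1779 in sham cortex). The part of cell composition in the differences of the chain between tissues was not tested. Between sham hippocampus and sham cortex the nuclear median was 0.12 (69 of 96 positive) and the mitochondrial median -0.08 (2 of 7 positive), and both genomes were close to the median of 0.02 for all genes.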

How the data were processed

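PolyA RNA with a RIN of at least the labelled minimum was made into directional libraries and sequenced from single ends, per the labels' protocols. Trimmomatic, STAR, featureCounts and the mm10 build are named in the submitters' processing notes. Which versions, gene annotation and strand option were used, and how multiply matching reads were counted, is not given in the sources used here. The deposited values are raw read counts per gene, without normalization by the authors. The 12 totals of read assignment in each file were kept out of library sizes; reads without a feature made up 2.62% to 9.22% and ambiguous reads 3.92% to 5.08%. Between 3255661 and 138963332 reads were assigned per library, so genes of a few CPM rest on few reads in the shallowest library.

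Gene names, positions and exon lengths came from GENCODE M21 on GRCm38, which held 55227 of the 55487 identifiers. Counts were tested with edgeR 4.0.16 in R 4.3.3 (filterByExpr, TMM, robust quasi-likelihood fit), per tissue for bulbectomy, over all sham libraries for tissues and over all 24 libraries for differences between effects. P-values were adjusted by Benjamini-Hochberg over all genes tested, and genes with an adjusted p under 0.05 were called. The scripts were tested on simulated data. Transcripts were compared by 50-base words. Fits by DESeq2 1.42.0, limma 3.58.1 (voom), other scalings, no filter, a trend over length and GC content, the replicate number as a block and libraries left out were alternatives.

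Replicate numbers come from the titles. Same-numbered sham hippocampus and cerebellum libraries deviated together from their group means (correlation 0.239 to 0.576 in 5 pairs, each over 0.1). The number was therefore tried as a block in alternative fits, while the main tests used no block. The lowest correlation was below 0.1 for bulbectomy against sham in hippocampus (-0.327) and cortex (-0.22) and for the other pairs of sham tissues. In the cerebellum the 2 same-numbered pairs of bulbectomy and sham libraries, of different operations, correlated at 0.364 and 0.465. A shared number thus does not show that libraries came from 1 animal.

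Named genes were the mitochondrial genes, the called genes or those of smallest p in each comparison, complex II subunits, c subunit genes and isoform sets of complex IV; genes called in both cerebellar comparisons and the DESeq2 calls were named after their values were seen. The members and all gene lists were chosen with earlier results of these data known. Bulbectomy replicate 3 of cortex and replicates 3 and 4 of cerebellum were not analysed here.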

Additional observations from a re-analysis of the deposited data

Results flagged for a closer look

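Values that stood far from the rest of their group of 4 or 5 libraries, by Dixon's 95% critical value, were found in 17 of 184 groups examined. Chance gives about 1 in 20 for independent groups. These groups share libraries and reads, so their count cannot be set against that rate. Sham hippocampus 1, the shallowest library, accounted for 10 of the 17. These 10 overlap: the mitochondrial sum of complex III is mt-Cytb alone and that of complex IV nearly all mt-Co1. The total, the sum of complex I and the ratio use the same reads again. Its mitochondrial genes summed to 120000 CPM (49470 to 63710 in the other 4), with 64250 for complex I (31860 to 39950), 15970 for complex III (6470 to 8672) and 39740 for complex IV (8280 to 15390). By gene it had 14340 CPM of mt-Nd2 (6339 to 7522 in the others), 9049 of mt-Nd4 (3734 to 4465), 9517 of mt-Nd5 (2848 to 3460), 15970 of mt-Cytb (6470 to 8672) and 39740 of mt-Co1 (8280 to 15390). Its ratio of mitochondrial to nuclear chain reads was 10.13 (2.382 to 4.42). For mt-Nd1 and mt-Nd6 the same library did not stand apart by this measure.

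Among the bulbectomy libraries of the hippocampus, replicate 3 had the highest mitochondrial sum, 105500 CPM (87360 to 88980 in the others), and replicate 2 the highest Ndufv3 level, 207.3 CPM (166.2 to 170.6). Cerebellar sham 5 had 17960 CPM of mt-Nd1 (9979 to 11890), and sham hippocampus 3 had 10.51 CPM of Cox6b2 (4.39 to 5.896). Cerebellar sham 1 had 133.6 CPM of Sdhc (248.2 to 262.2), cortical sham 1 had 45.88 CPM of Sdhd (60.09 to 64.6) and sham hippocampus 2 had 190.9 CPM of Atp5f1 (155.1 to 155.7).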

How the results depend on the processing

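The count of chain genes called depended on tool and libraries. Of 91 gene results followed through 2124 alternatives, 87 kept their sign in all of them. These were results of genes named in the text, many chosen for a call or a small p in these same data. The alternatives reuse the same libraries, so this count does not measure how stable the direction was over the other chain genes. The alternatives that leave out every library numbered 1, and the block with only 2 tissues, were added after seeing the data. In the hippocampus (1 called) DESeq2 gave 11, limma voom 6, the trend removed 2, sham 1 and 2 left out 9, the replicate block 0 and every number 1 left out 0, and leaving out single libraries gave 0 to 7. In that order, the named fits called 2.67%, 0.915%, 1.52%, 0.842%, 0.193% and 0.177% of all genes higher. They called 4.16%, 1.28%, 1.81%, 1.64%, 0.35% and 0.206% lower. With single hippocampal libraries left out, 0.105% to 1% of all genes were called higher and 0.0841% to 2.46% lower. In the cortex (0 called) voom gave 5, every number 1 left out 7 and single libraries left out 0 to 20. Voom there called 1.08% of all genes higher and 0.62% lower, and every number 1 left out 0.558% and 0.664%. With single cortical libraries left out, 0.00658% to 2.01% of all genes were called higher and 0% to 1.78% lower. In the cerebellum (0 called) voom gave 1 and single libraries left out 0 to 1, where voom called 0.373% of all genes higher and 0.0654% lower. With single cerebellar sham libraries left out, 0% to 0.211% of all genes were called higher and 0% to 0.0263% lower. For sham cerebellum against hippocampus (14 called) DESeq2 gave 23, voom 36, the assigned total 29, the trend removed 32, the replicate block 28, the block with 2 tissues 39, every number 1 left out 35 and single libraries left out 11 to 51. In that order, these fits called 15.8%, 18.4%, 15.7%, 21.9%, 15.8%, 18%, 16.3% and 10.7% to 17.3% of all genes higher. They called 16.6%, 21.1%, 12.8%, 16.8%, 19.2%, 16.7%, 20.2% and 13.8% to 21.8% lower. For sham cerebellum against cortex (28 called) voom gave 69, every number 1 left out 69 and single libraries left out 18 to 68. In that order, these fits called 29%, 24.3% and 15% to 24.6% of all genes higher. They called 30.7%, 24.8% and 14.2% to 25.6% lower. The block moved the other counts by less than 1.5 times. Signs changed in the hippocampus for mt-Nd5 (voom 0.27, replicate block 0.0889, sham 1 and 2 left out 0.52, every number 1 left out 0.45, single libraries left out -0.22 to 0.42), for mt-Co1 (assigned total -0.0157, single libraries left out -0.13 to 0.57) and for Atp5g2 (trend removed -0.0235), and for mt-Nd6 in sham cerebellum against cortex (trend removed 0.18). The nuclear median in cortex (0.26) lay between 0.11 (assigned total, or without bulbectomy 4) and 0.49 (without bulbectomy 1) and was 0.45 without every number 1, and the mitochondrial one (0.55) lay between 0.26 and 0.97. In the hippocampus the nuclear median lay between 0.20 and 0.44 and the mitochondrial one between 0.28 and 0.80 over 20 alternatives. The assigned total shifted the median of all genes by -0.15 in hippocampus and -0.14 in cortex, and in the cortex 62 of 95 nuclear genes were then positive. Between sham hippocampus and cortex the mitochondrial median lay between -0.39 and 0.39. The causes were not tested. Depth limits Cox6a2, Cox7a1, Cox6b2 and Atp5l, and 6 mitochondrial genes could not be measured.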

Other observations

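Genes that regulate, assemble or feed the chain were described from lists chosen with earlier results of these data known. In sham cerebellum against sham hippocampus 12 of 13 regulators of respiratory genes were positive, with a median log2 fold change of 0.70 against 0.05 for all genes, and edgeR called 4 higher and 1 lower, where 12.9% of all genes were called higher and 15.5% lower. Called higher were Gabpb1, a subunit of the GA-binding protein NRF2 (1.26 ± 0.19 SE, adjusted p 7.5e-05), Nrf1 (0.70 ± 0.17, 0.00506), Esrra (0.81 ± 0.20, 0.00526) and Esrrg (1.64 ± 0.49, 0.0182), the last 2 being estrogen-related receptors, and Pprc1, a coactivator, was called lower (-0.51 ± 0.15, 0.0172). Against sham cortex 11 of 13 were positive and 4 were called higher, where 17.9% of all genes were: Esrra (1.01), Tfeb (1.37), Gabpb1 (0.87) and Nrf1 (0.73). Among 22 genes that copy and transcribe mitochondrial DNA, Polg2, the accessory subunit of its polymerase, was called higher in sham cerebellum against hippocampus (1.55 ± 0.28, adjusted p 0.000384) and against cortex (1.87 ± 0.27), as was Tfam, which packages that DNA (0.63 and 0.68). Of 41 further assembly factors 8 were called higher against hippocampus (12.9% of all genes were), led by Cox14 (1.05 ± 0.18, adjusted p 0.000284) and Uqcc1 (0.61 ± 0.14, 0.0033), and of 17 genes of the citric acid cycle and pyruvate entry 4 were called higher, Pdhb, Fh1, Pcx and Idh3b.

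After bulbectomy in the hippocampus these lists held 1 call each or none (edgeR). Of 13 regulators 7 were positive (median 0.04), and Ppara, a fatty acid receptor, was called lower (-1.68 ± 0.39, adjusted p 0.0475). Positive were 24 of 40 assembly factors (median 0.10), 12 of 22 genes of mitochondrial DNA expression (0.08), 8 of 17 of the citric acid cycle (-0.03), 17 of 22 carriers and outer membrane proteins (0.16) and 14 of 16 of glycolysis (0.32), with none called. Of the mitochondrial ribosomal proteins, which are also short, 69 of 77 were positive (0.27, 1 called higher), and of the cytosolic ones 57 of 77 (0.15, 1 called lower).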
